A study of Homo sapiens with 6 samples.

Results

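The histone cluster genes are the genes whose symbols begin with HIST1H, HIST2H, HIST3H or HIST4H, and 73 of the 25369 genes counted in this RNA-Seq experiment met that rule. They encode the linker histone H1 (6 genes) and the core histones H2A (18), H2B (20), H3 (14) and H4 (15). Caki2 is a clear cell renal cell carcinoma (ccRCC) line that makes no PBRM1 protein, the chromatin-reading subunit of the PBAF remodeling complex. Poly(A)-selected RNA was sequenced from Caki2 cells (3 replicates, A to C) with an empty doxycycline-inducible lentiviral vector (Caki2+Vector) and from 3 replicates with PBRM1 in the same vector (Caki2+PBRM1). Both were drug-selected stable lines of 1 cell line, both received doxycycline at 2 µg/mL, and PBRM1 was driven by a tetracycline-responsive promoter. The comparison asks which transcripts change when PBRM1 is put back. The deposited value is a normalized count, that is, reads on a gene over the size factor of the sample.

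Core and linker histones package DNA into nucleosomes, and most of them are made from replication-dependent genes that are switched on in S phase together with DNA synthesis. The mRNA of such a gene has no introns and usually no poly(A) tail. It ends just after a short stem-loop in the 3′ untranslated region, which the protein SLBP binds and at which the U7 snRNP directs cleavage. Some of these genes also give longer transcripts with a poly(A) tail, and selection with oligo(dT) keeps those and leaves most stem-loop-ended mRNA behind. The levels below therefore describe the polyadenylated part of the histone transcripts, and a change in polyadenylation cannot be told apart from a change in transcription. Replacement variants lie outside the clusters, and many of them, H3F3B for one, carry introns and are polyadenylated.

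The stem-loop itself was read from the GRCh37 genome, the build to which the reads had been aligned, for the 6 members with enough reads to be tested and for the H3 gene with the most reads. It is shown because mRNA cleaved just after it carries no poly(A) tail. Each line gives 30 bases of the 3′ untranslated region from 5′ to 3′ on the transcribed strand, with the stem-loop in capitals.
HIST1H2BK, chr6:27114138-27114167, minus strand: ccccaaaGGCTCTTTTAAGAGCCacttaaa
HIST1H1C, chr6:26055965-26055994, minus strand: cccaaaaGGCTCTTTTCAGAGCCaccactg
HIST1H2BD, chr6:26158808-26158837, plus strand: tcccaaaGGCTCTTTTAAGAGCCacgcatg
HIST1H2AC, chr6:26124890-26124919, plus strand: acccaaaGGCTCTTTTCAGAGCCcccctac
HIST1H2BC, chr6:26123693-26123722, minus strand: ccccaaaGGCTCTTTTAAGAGCCacccaga
HIST1H4H, chr6:26285352-26285381, minus strand: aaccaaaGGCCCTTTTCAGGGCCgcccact
HIST1H3E, chr6:26225817-26225846, plus strand: atccaaaGGCTCTTCTCAGAGCCaaccact

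All 67 members with an annotated coding sequence held the motif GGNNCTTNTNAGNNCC on the transcribed strand within 100 bases of the stop codon, at a median of 35 bases after it (22 to 67). Among 4041 other coding genes of chromosomes 1, 6 and 12, 1 gene (0.0247%) held it, and that gene, H3-7, is also an H3 histone gene. The stem differed by type. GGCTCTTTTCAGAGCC was found in 39 members and in none of the H4 genes, whereas 9 H4 genes held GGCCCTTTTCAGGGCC and 4 held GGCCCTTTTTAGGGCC. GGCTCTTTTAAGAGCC was found in 9 members, HIST1H2BK, HIST1H2BD and HIST1H2BC among them.

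The members differed far more in where their annotated transcripts end. In 49 members every GENCODE transcript ended within 200 bases of the stem-loop, in fact 1 to 11 bases past it. In 18 members at least 1 transcript ended 285 to 37155 bases past it on the genome, introns included. Most of these members have a spliced transcript, and that of HIST1H2BC reaching 37155 bases past the stem-loop is 2548 bases long. HIST1H2AC (chr6:26124373-26139344), HIST1H2BD (chr6:26158350-26171577), HIST1H4H (chr6:26277837-26285866) and HIST1H2BC (chr6:26086545-26124154) were of this kind. HIST1H2BK (chr6:27114140-27114634) and HIST1H1C (chr6:26055968-26056698) ended 5 and 4 bases past the stem-loop in GENCODE, as single exons, although the RefSeq entry of HIST1H2BK on a newer assembly is longer. The gene models against which the authors counted were not used here, so which of these ends was counted is not known. The long model of HIST1H2BC spans HFE, HIST1H4C (H4C3) and HIST1H1T (H1-6), and those of HIST1H2AC, HIST1H2BD and HIST1H4H overlap noncoding genes. These are overlaps of whole gene spans, introns included, and overlap of exons was not measured. Some partners lie on the same strand and others on the opposite one, and the library is not known to mark strand. Where exons overlap, reads may not be told apart, so the counts are uncertain to that extent.

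PBRM1 itself stood at 195, 182 and 182 normalized counts in Caki2+Vector, against 2432, 2521 and 2682 in Caki2+PBRM1, as labelled. The libraries held 7312955 to 10835355 reads on genes. Caki2+Vector A stood apart from B and C, with a chi-square per degree of freedom of 3.09 and 2.84 against 1.34 between B and C and 1.19 to 1.22 within Caki2+PBRM1. Of 9 markers of renal epithelium and ccRCC, PAX8, KRT8, KRT18, CDH6 and VIM were present in every sample at 1114 normalized counts or more, although CDH6 stood at 1114 to 1209 without PBRM1 and at 2505 to 2552 with it. EPAS1 lay between 94.7 and 196 and PAX2 between 20.4 and 34.0, while LRP2 and the HIF target CA9 were near 0, at 15.2 at most, and both were at 0 in Caki2+Vector C. Of 7 markers of blood, endothelium, fibroblast or pericyte, CD3E and CDH5 were at 0 throughout, and the summed level of the 7 ranged from 100.7 to 105.8 in Caki2+Vector, and from 90.6 to 118.2 in Caki2+PBRM1.

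Histone cluster transcripts were rare in these libraries. In all, 3837 reads fell on the 73 members, which is 65.8 to 67.1 RPM (reads per 1000000 reads on genes) in Caki2+Vector, against 70.9 to 72.9 RPM in Caki2+PBRM1. No read was seen for 19 members, 1 to 10 reads over the 6 libraries for 30, and 24 members were seen in every library. A count of 0 allows up to 3 reads, or 0.277 to 0.410 RPM depending on the library, for counting error only. Members of the HIST1 cluster took 97.3% of the reads (56 genes), HIST2 took 2.16% (13 genes), HIST4 took 0.417% (1 gene) and HIST3 took 0.104% (3 genes).

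The reads were concentrated in a few genes. HIST1H2BK, an H2B gene, took 1626 reads and HIST1H1C, which encodes linker histone H1.2, took 1021. HIST1H2BD followed with 321, HIST1H2AC with 161, HIST1H2BC with 96 and HIST1H4H with 71. These 6 passed the filter (10 or more normalized counts in 3 or more samples), and they held 85.5% ± 0.733 (SD, n = 3) of member reads in Caki2+Vector and 86.2% ± 0.266 in Caki2+PBRM1. By type, H2B genes took 57.8% of the reads, H1 27.3%, H2A 7.51%, H3 3.99% and H4 3.36%. Per kilobase of coding sequence the order of the leading genes was the same, with 692 ± 27.2 normalized counts per kilobase for HIST1H2BK, 231 ± 8.22 for HIST1H1C, 114 ± 20.1 for HIST1H2BD, 51.6 ± 6.83 for HIST1H2AC, 43.8 ± 9.49 for HIST1H2BC and 28.4 ± 10.8 for HIST1H4H in Caki2+Vector. HIST1H2AC and HIST1H2BC did not differ beyond their spread in that order, nor did HIST1H2BC and HIST1H4H. In Caki2+PBRM1 HIST1H4H (44.3 ± 11.0) stood above HIST1H2BC (39.0 ± 4.81), again not beyond their spread. The length over which the authors counted each gene is not known, so these values are not transcript densities.

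**Figure D1:**
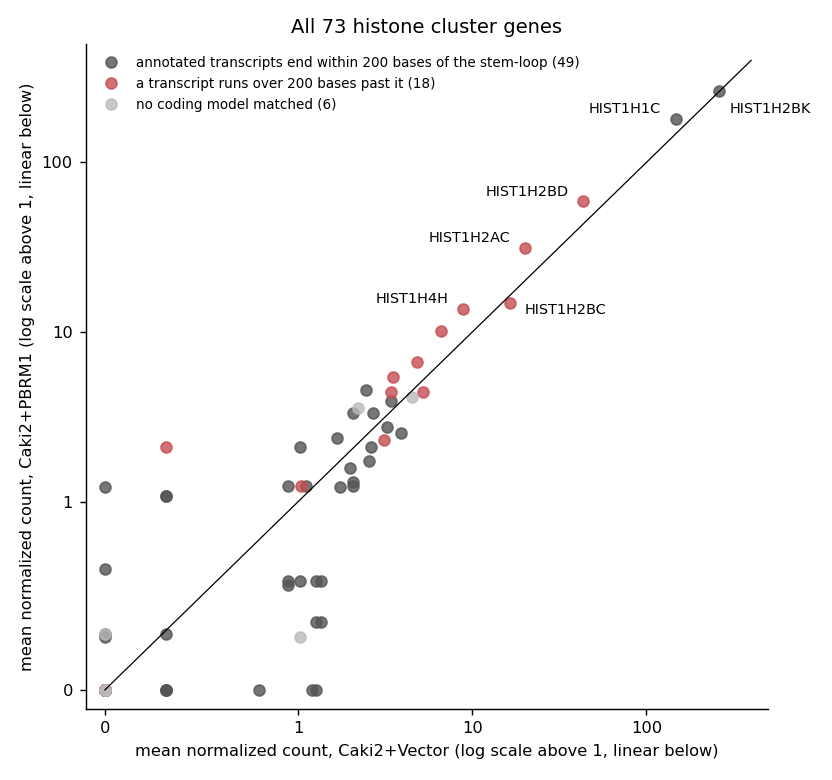
Mean normalized count of each of the 73 histone cluster genes in Caki2+Vector (x axis, n = 3) and Caki2+PBRM1 (y axis, n = 3), both on a log scale above 1 and linear below, coloured by whether an annotated transcript runs over 200 bases past the stem-loop; the line marks equal levels. Most points lie under 10, and HIST1H2BK and HIST1H1C lie apart at the top although their annotated transcripts stop at the stem-loop.

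The 18 members whose annotation runs past the stem-loop had a median of 20 reads over the 6 libraries and 850 reads in sum, 4 of them passed the filter and 6 had no read. The 49 that end at it had a median of 5 reads, 11 had no read, and 2 passed, HIST1H2BK and HIST1H1C, which supplied most of the 2936 reads of that class. HIST1H3E and HIST2H2BE, the next genes by reads (53 and 36), also have a transcript past the stem-loop. These are descriptions of an annotation beside read counts, with no test.

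Several members were at 0. HIST1H2AA, HIST1H2BA and HIST1H1T, histones of the testis, had 0, 0 and 2 reads. The H1 genes of dividing cells other than HIST1H1C were also low, with 13 reads for HIST1H1E, 7 for HIST1H1B, 6 for HIST1H1D and 0 for HIST1H1A. The near-identical copies HIST2H2AA3 and HIST2H2AA4, HIST2H3A and HIST2H3C, and HIST2H4A and HIST2H4B had no read. A read of 100 bases could come from either copy there, so their level is uncertain. Of the 70 members matched to a gene model, 11 shared 49.7 to 100.0% of their 100-base windows with another member, 6 of these had no read and none had more than 22. The 6 tested members shared no such window, as did 52 members in all.

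Along chromosome 6 the HIST1 cluster breaks into stretches separated by more than 200 kb, and 53 members were placed on it. The first stretch holds 3 members, all at 0. The next holds 29 members over 268 kb, with 1862 reads, and includes HIST1H1C, HIST1H2BC, HIST1H2AC, HIST1H2BD, HIST1H3E and HIST1H4H. The following stretch starts 815 kb beyond HIST1H4H and holds HIST1H2BK and 4 other members over 15.2 kb, with 1687 reads. The last stretch holds 16 members with 153 reads.

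**Figure D2:**
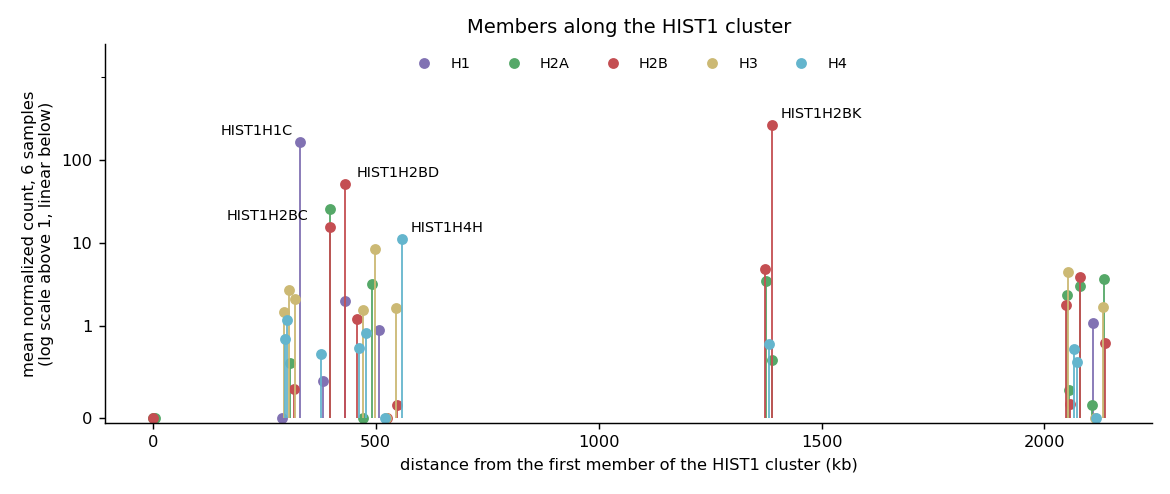
Mean normalized count over the 6 samples (y axis, log scale above 1, linear below) of the HIST1 members against their distance in kb from the first of them (x axis), coloured by histone type. The tested members stand in the second stretch, except HIST1H2BK at 1388 kb, the only tested member of its stretch.

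Of the 6 members tested, 3 were upregulated in Caki2+PBRM1 and 0 were downregulated at an adjusted p under 0.05, in a fit of limma over 13303 genes in which 16.2% of genes were called up, 13.0% called down and 29.2% called in either direction. The 3 were HIST1H1C, HIST1H2AC and HIST1H2BD, and in each of them all 3 Caki2+PBRM1 samples lay above all 3 Caki2+Vector samples. Over all genes tested, 22.1% were separated in that direction. The rises were moderate, from 1.23-fold to 1.54-fold, and HIST1H2BK, with the most reads of all, did not move by more than its spread. The calls were fragile. DESeq2 on the recovered reads called 0 of 6 members up (11.2% of all genes), with 2 up at an unadjusted p under 0.05 (16.1% of all genes up), whereas edgeR's quasi-likelihood test called 3. The number called was 0 without Caki2+PBRM1 A, 1 without Caki2+PBRM1 B, Caki2+PBRM1 C or Caki2+Vector C, and 2 without Caki2+Vector A or Caki2+Vector B.

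HIST1H1C encodes the linker histone H1.2, which binds the nucleosome where DNA enters and leaves it. In Caki2+Vector its normalized counts were 146.7, 153.1 and 142.6, and 197.1, 171.5 and 176.3 were seen in Caki2+PBRM1. The groups did not overlap, and sample A of Caki2+PBRM1 was the highest. The level rose 1.23-fold, a log2 fold change of 0.30 with an SE of 0.096 and a 95% interval of 0.10 to 0.49 (adjusted p = 0.0194, limma, on log2 of the normalized count plus 1). Without Caki2+PBRM1 A the log2 fold change was 0.24 (adjusted p = 0.121, limma), and without Caki2+Vector C it was 0.27 (adjusted p = 0.0550, limma).

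HIST1H2AC, an H2A gene, had 17.0, 21.7 and 21.6 normalized counts in the Caki2+Vector samples and 31.4, 28.4 and 34.4 in the Caki2+PBRM1 samples. The lowest Caki2+PBRM1 sample lay above the highest Caki2+Vector sample. The log2 fold change was 0.62 with an SE of 0.22 (1.54-fold, adjusted p = 0.0338, limma), and its 95% interval ran from 0.17 to 1.08. The call was lost without Caki2+Vector A, which had the lowest value (log2 fold change 0.51, adjusted p = 0.10, limma), and without each of the Caki2+PBRM1 samples, where the adjusted p of limma was 0.0526 to 0.140. The gene had 161 reads over the 6 libraries, which limits its precision.

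HIST1H2BD, an H2B gene, had 51.1, 42.5 and 36.0 normalized counts in the Caki2+Vector samples and 54.2, 60.4 and 62.1 in Caki2+PBRM1. The groups were separated by a narrow gap, between 51.1 and 54.2. The log2 fold change was 0.45 with an SE of 0.17 and a 95% interval of 0.11 to 0.79 (1.37-fold, adjusted p = 0.0434, limma). The call was kept without Caki2+Vector A and lost without any one of the other 5 samples, where the adjusted p of limma was 0.0585 to 0.176. It was also lost with no filter on low values (adjusted p = 0.0590, limma).

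HIST1H2BK had 253.7, 257.9 and 273.3 normalized counts in the Caki2+Vector samples and 258.9, 271.1 and 262.7 in Caki2+PBRM1, so that the groups lay over each other. Its log2 fold change was 0.015 with an SE of 0.077 (adjusted p = 0.910, limma). The 95% interval of -0.14 to 0.17 leaves out changes of more than 1.13-fold upward. HIST1H2BC, another H2B gene, had 13.3, 16.1 and 20.4 in Caki2+Vector and 14.1, 13.3 and 16.8 in Caki2+PBRM1. This is a log2 fold change of -0.15 with an SE of 0.28 and a 95% interval of -0.71 to 0.42 (adjusted p = 0.742, limma). The interval of HIST1H2BC takes in the rise seen for HIST1H1C.

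HIST1H4H, the H4 gene with the most reads, had 12.3, 5.7 and 8.4 in Caki2+Vector and 11.9, 11.6 and 17.6 in Caki2+PBRM1. The groups overlapped through Caki2+Vector A, the only Caki2+Vector sample to reach the 10 normalized counts of the filter. HIST1H4H thus passed the filter through its Caki2+PBRM1 samples, and its upward estimate is not free of that selection. The log2 fold change of 0.62 was as large as that of HIST1H2AC, but its SE was 0.34 and its interval ran from -0.073 to 1.31 (adjusted p = 0.178, limma). No H3 member passed the filter. HIST1H3E, the H3 member with the most reads, had 9.5, 5.7 and 4.8 normalized counts in Caki2+Vector against 9.8, 12.4 and 8.4 in Caki2+PBRM1, with overlap. HIST2H2BE, an H2B gene of the HIST2 cluster on chromosome 1, had 6.6, 1.9 and 6.0 against 4.3, 7.1 and 8.4, also with overlap.

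**Figure D3:**
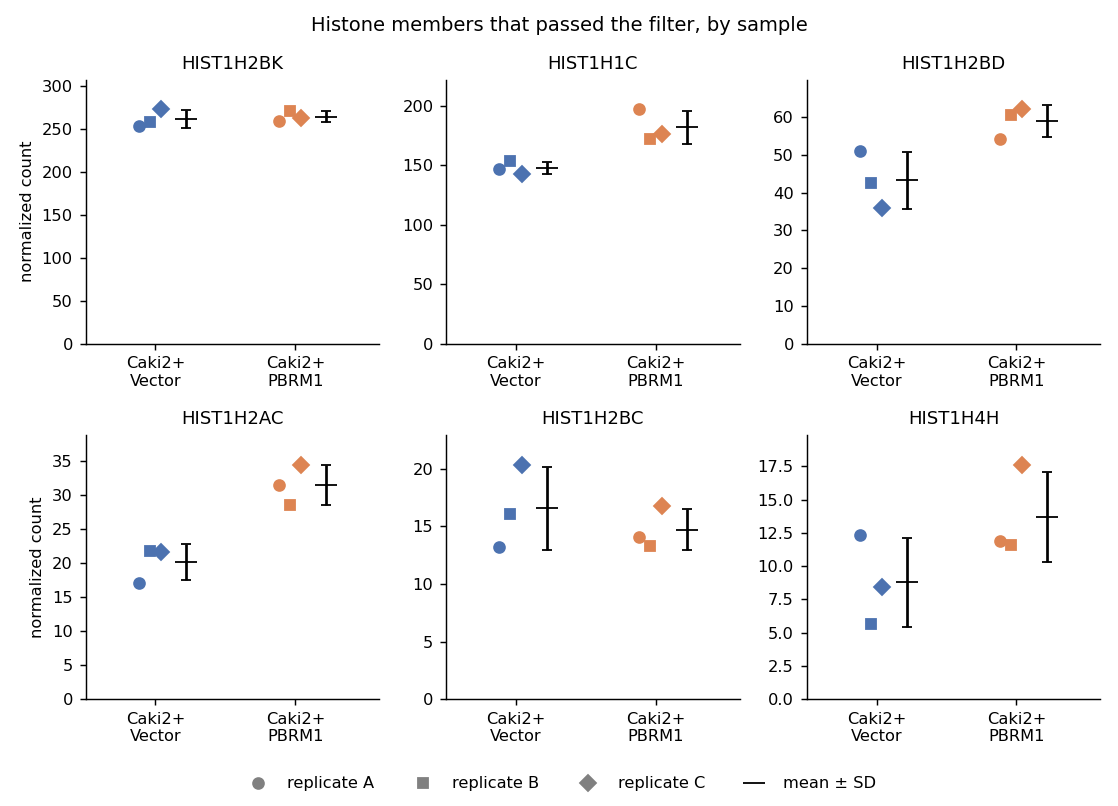
Normalized counts (y axis, from 0, a scale for each gene) of the 6 tested members in the 3 Caki2+Vector and 3 Caki2+PBRM1 samples (x axis), one point a replicate, with bars for the mean ± SD. HIST1H1C, HIST1H2BD and HIST1H2AC show separated groups, while HIST1H2BK, HIST1H2BC and HIST1H4H overlap.

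HIST1H2AC and HIST1H2BC lie head to head, as H2A and H2B genes of the clusters often do, and share the sequence between their starts. The 245 bases between these starts are shown from RefSeq (GRCh38.p14, chr6:26123927-26124171, plus strand, HIST1H2BC to the left and HIST1H2AC to the right), together with 120 bases before the starts of 4 other tested members. Capitals mark 3 promoter elements on either strand, namely the TATA box (searched as TATAAA), the CCAAT box (searched as those 5 letters) and the octamer known from H2B promoters, to which POU2F1 binds (searched as ATTTGCAT).
HIST1H2BC to HIST1H2AC: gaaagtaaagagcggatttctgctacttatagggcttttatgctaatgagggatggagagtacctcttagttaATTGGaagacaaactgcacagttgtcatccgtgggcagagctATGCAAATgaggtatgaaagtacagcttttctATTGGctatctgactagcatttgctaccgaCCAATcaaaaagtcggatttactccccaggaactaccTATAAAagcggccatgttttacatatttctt
HIST1H2BK, chr6:27146859-27146978, minus strand: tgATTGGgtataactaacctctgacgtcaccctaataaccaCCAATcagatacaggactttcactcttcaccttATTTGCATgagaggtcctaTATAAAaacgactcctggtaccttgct
HIST1H1C, chr6:26056471-26056590, minus strand: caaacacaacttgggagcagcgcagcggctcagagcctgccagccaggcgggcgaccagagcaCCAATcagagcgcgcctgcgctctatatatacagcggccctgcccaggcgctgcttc
HIST1H2BD, chr6:26158001-26158120, plus strand: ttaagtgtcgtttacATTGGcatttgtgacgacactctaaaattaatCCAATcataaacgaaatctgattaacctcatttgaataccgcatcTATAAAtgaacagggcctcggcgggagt
HIST1H4H, chr6:26285535-26285654, minus strand: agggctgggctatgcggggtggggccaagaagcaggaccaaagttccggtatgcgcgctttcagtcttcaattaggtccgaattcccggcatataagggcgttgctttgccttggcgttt

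Across the pair that shares this sequence, the ratio of HIST1H2AC to HIST1H2BC counts was 1.29, 1.35 and 1.06 in Caki2+Vector and 2.23, 2.13 and 2.05 in Caki2+PBRM1, without overlap. The ratio of HIST1H1C to HIST1H2BK was 0.578, 0.593 and 0.522 in Caki2+Vector and 0.762, 0.633 and 0.671 in Caki2+PBRM1. Both pairs were chosen after their values had been seen, so the separation of these ratios is not independent evidence, and no p is printed for them. Each of the 3 called members held CCAAT, as did HIST1H2BK and HIST1H2BC, which were not called. HIST1H2BK held all 3 motifs, HIST1H2BD held TATAAA and CCAAT, HIST1H1C held CCAAT alone, and HIST1H4H held none of the 3 in the 300 bases around the start.

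Over 65 members with a promoter in the RefSeq table (250 bases before to 50 after each start, any annotated start of the gene), TATAAA or its reverse complement was found in 67.7%, against 14.0% of all 27305 genes in the table. CCAAT was found in 84.6% against 39.7%, and ATTTGCAT in 40.0% against 2.19%. The octamer was found in 14 of 18 H2B and 11 of 16 H2A genes, 1 of 12 H3 genes and in none of the 6 H1 or 13 H4 genes. CCAAT was present in every H1, H2A, H2B and H3 member with a promoter and in 3 of 13 H4 members. Among the 16 members with a promoter and no read, 62.5% held TATAAA and 25.0% held the octamer.

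Summed over all 73 members, the values were 573, 586 and 588 normalized counts in Caki2+Vector, against 657, 644 and 663 in Caki2+PBRM1. The means of 582 ± 8.41 and 655 ± 10.1 (SD, n = 3) give a ratio of 1.12, and the groups did not overlap. Scaled to RPM in place of the size factors, the ratio was 1.08, still without overlap. More cells making these transcripts and more transcript per cell cannot be told apart in such bulk samples.

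The sum moved with a few genes. H1 genes together stood at 152 ± 5.84 and 186 ± 11.9, a ratio of 1.22 that HIST1H1C carried, and H2A genes at 41.5 ± 2.34 and 51.2 ± 1.57, a ratio of 1.23, both without overlap. HIST1H2AC carried the H2A ratio, since it alone went from 20.1 ± 2.66 to 31.4 ± 2.98, a larger rise than that of the H2A sum. H2B genes stood at 348 ± 7.73 and 368 ± 14.6, H3 genes at 22.3 ± 3.78 and 27.6 ± 5.18, and H4 genes at 18.8 ± 5.07 and 22.5 ± 3.68, and in these 3 types the groups overlapped. The 67 members below the filter, summed, stood at 84.6 ± 5.33 and 90.1 ± 3.03, with overlap. By position, the 29 members of the second HIST1 stretch summed to 264.9 to 267.4 in Caki2+Vector, against 318.2 to 341.2 in Caki2+PBRM1. The ratio was 1.25, without overlap. That stretch holds the 3 called members, whose means went from 147 to 182 (HIST1H1C), 43.2 to 58.9 (HIST1H2BD) and 20.1 to 31.4 (HIST1H2AC). The stretch of HIST1H2BK, 5 members in all, summed to 272 ± 12.3 and 274 ± 9.19. HIST1H2BK alone made up 262 and 264 of these. The sums by stretch thus largely restate these single genes. The share of HIST1H2BK among member reads was 44.9% ± 1.32 in Caki2+Vector and 40.4% ± 1.52 in Caki2+PBRM1.

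**Figure D4:**
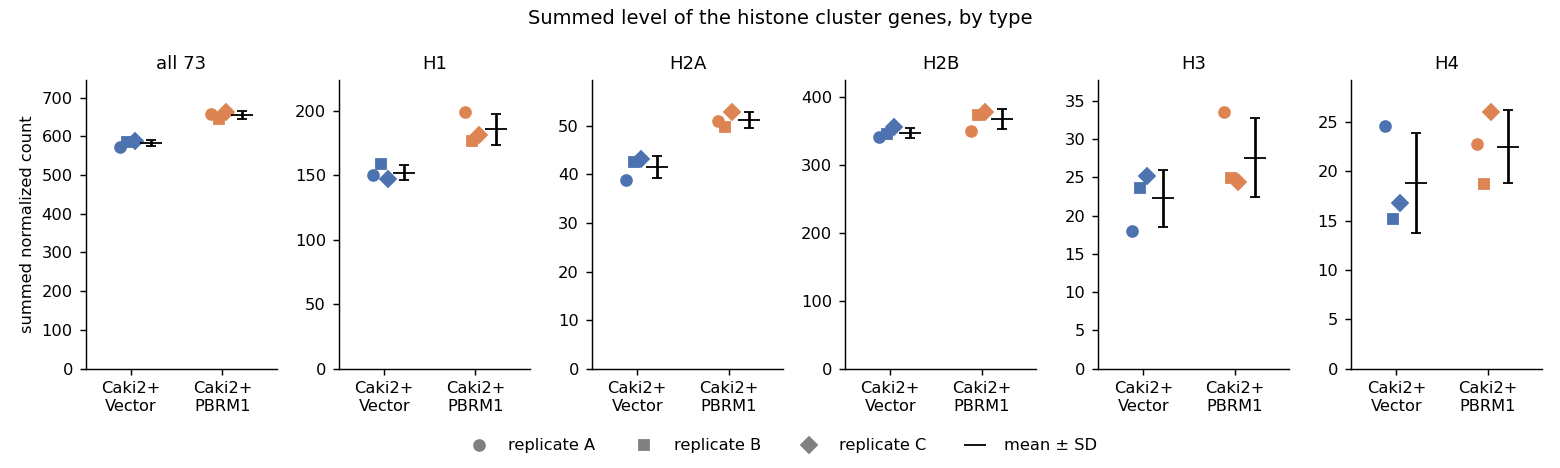
Summed normalized counts (y axis, from 0, a scale for each panel) of all 73 members and of the members of each histone type in the 3 Caki2+Vector and 3 Caki2+PBRM1 samples (x axis), with bars for the mean ± SD. The groups are separated for all members, H1 and H2A and overlap for H2B, H3 and H4.

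Below the filter, single members carried too few reads to compare. HIST1H2BE and HIST1H4K were higher in every Caki2+PBRM1 sample than in any Caki2+Vector sample, and HIST1H2BF and HIST1H4I were lower, all at normalized counts of 2.67 or less. That is 2 of 67 above and 2 of 67 below. Of the tested genes 22.1% lay above and 19.6% lay below, but all of these had passed the filter. The 19 members with no read cannot separate at all. The shares are therefore not a like comparison, and no conclusion is drawn from them. With no filter on low values, the 54 members with at least 1 read divided into 27 higher and 27 lower in Caki2+PBRM1. Then limma called 2 of the 54 up (HIST1H1C and HIST1H2AC) and 0 down, where 11.0% of 19380 genes were called up, and 5 members were up and 1 down at an unadjusted p under 0.05, as were 16.1% and 13.6% of all genes. edgeR with no filter also called 2 up and 0 down (11.5% of genes up), with 3 up and 1 down at an unadjusted p under 0.05, as were 15.6% and 14.1% of all genes.

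The replacement variants, many of which are polyadenylated, were far more abundant. Together they summed to 14873 ± 328 normalized counts in Caki2+Vector, against 14719 ± 32.4 in Caki2+PBRM1, with overlap (ratio 0.990). As RPM the ratio was 0.953, without overlap. Of 18 listed variants, 11 passed the filter, and 1 was called up and 1 down, beside 16.2% up and 13.0% down over all genes tested. Their median log2 fold change was -0.032, beside -0.0036 over all genes tested. Both calls concerned linker histones. H1FX (H1.10) stood at 288, 333 and 382 in Caki2+Vector and 460, 387 and 444 in Caki2+PBRM1 (log2 fold change 0.37, SE 0.089, adjusted p = 0.00299, limma), without overlap. H1F0 (H1.0), the linker histone known from non-dividing cells, fell from 590, 542 and 518 to 489, 510 and 460 (log2 fold change -0.18, SE 0.064, adjusted p = 0.0376, limma), also without overlap. The call of H1F0 was lost with DESeq2 (adjusted p = 0.116) and without Caki2+Vector A, Caki2+Vector B, Caki2+PBRM1 A or Caki2+PBRM1 C, where the adjusted p of limma was 0.0618 to 0.197.

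The other 9 variants did not pass the test in the main fit, although some were called in alternatives. H2AFX was called in 1 of 6 fits leaving out 1 replicate and in 3 of 11 other alternatives. H2AFJ was called in 1 of the 6, and H2AFY in 1 of the 11. The values that follow are those of the main fit. H2AFX, whose product is phosphorylated at DNA breaks, had a log2 fold change of 0.17 and H2AFJ of -0.16, and H2AFY2, a macroH2A gene, of -0.14. H2AFZ (-0.041), H2AFV (0.026), H2AFY (-0.027), H3F3B (-0.032) and the centromeric H3 gene CENPA (0.056) lay near 0. H3F3C had the largest value, -0.51, at normalized counts of only 14.3 to 32.2. H3F3A was listed at 0 in all samples, as were H1FNT, H2AFB1, H2AFB2, H2AFB3, H2BFM and H2BFWT. Whether reads of H3F3A were lost in counting was not tested, so its level is uncertain. The summed level of the variants holds no reads of it.

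Transcription of the clusters is driven by NPAT, a coactivator that cyclin E and CDK2 phosphorylate as cells enter S phase, with gene-specific factors such as HINFP at H4 and POU2F1 at H2B promoters. Of 11 such genes found in the files, all were tested, and 3 were called up and 0 down, beside 16.2% and 13.0% of all genes tested. Their median log2 fold change was 0.044. CCNE2, a cyclin E gene, stood at 200, 188 and 186 in Caki2+Vector and 239, 236 and 232 in Caki2+PBRM1 (log2 fold change 0.30, SE 0.084, adjusted p = 0.00711, limma). CDK2 (0.15, adjusted p = 0.0242, limma) and POU2F1 (0.17, adjusted p = 0.0462, limma) were also upregulated, and in all 3 genes the groups did not overlap. The call of CDK2 was lost without any one of the Caki2+PBRM1 samples (adjusted p = 0.0592 to 0.117, limma). That of POU2F1 was lost without any one of them or without Caki2+Vector B (adjusted p = 0.0563 to 0.200, limma) and with no filter (adjusted p = 0.0640, limma), and its log2 fold change was 0.055 after the correction for length and GC content. NPAT itself had a log2 fold change of -0.034, CASP8AP2 of -0.11, CCNE1 of 0.066, CDC25A of 0.13, HINFP of 0.022, E2F1 of -0.057, YY1 of -0.079 and CRAMP1L of 0.044, none past the test. After that correction, 2 of the 11 were called up and 2 down, and DESeq2 called 0 of them.

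Among genes of histone mRNA 3′ end processing and decay, more were called down than up. All 31 found in the files were tested, and 1 was called up and 9 down, beside 16.2% and 13.0% of all genes tested. The median log2 fold change of the list was -0.074. NELFE, a subunit of the NELF complex that pauses RNA polymerase II, fell from 1009, 1033 and 990 to 855, 830 and 816 normalized counts (log2 fold change -0.28, adjusted p = 6.69e-05, limma). SNRPF, an Sm protein of the U7 and spliceosomal snRNPs, changed by -0.36 (adjusted p = 5.20e-04, limma), PAPD5, a noncanonical poly(A) polymerase, by -0.36 (adjusted p = 9.07e-04, limma), and CPSF2, a subunit of the cleavage complex, by -0.25 (adjusted p = 0.00359, limma), a call lost without Caki2+PBRM1 C (-0.19, adjusted p = 0.0562, limma). SLBP, which binds the stem-loops shown above, stood at 986, 792 and 889 in Caki2+Vector and 760, 793 and 780 in Caki2+PBRM1, so that the groups just overlapped. It was called down at -0.19 on the log2 scale, with an SE of 0.061 (adjusted p = 0.0226, limma). That call was kept without Caki2+Vector B and lost without any one of the other 5 samples (adjusted p = 0.0501 to 0.106, limma) and with DESeq2 (adjusted p = 0.0604), and without Caki2+Vector A the log2 fold change was -0.11. UPF1, of nonsense-mediated and histone mRNA decay, was the 1 called up (0.13, adjusted p = 0.0386, limma), and its call was kept only without Caki2+Vector C among the samples left out (0.079 without Caki2+Vector A). Many of these act on other RNAs too.

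Of 26 histone chaperones and deposition factors, 3 were called up and 7 down, beside 16.2% and 13.0% of all genes tested. Their median log2 fold change was -0.074. SSRP1, a subunit of the FACT complex, had -0.18 (adjusted p = 8.87e-04, limma), the MCM2 helicase subunit, which also holds H3 and H4, had -0.20 (adjusted p = 0.00214, limma), and DAXX, which deposits H3.3, had -0.21 (adjusted p = 0.00262, limma). ASF1A, a chaperone of H3 and H4, rose (0.23, adjusted p = 0.00514, limma), as did CABIN1 (0.17) and HJURP (0.15). The call of CABIN1 was lost without Caki2+Vector A, Caki2+PBRM1 A or Caki2+PBRM1 B, and that of HJURP without any one sample but Caki2+Vector A (adjusted p = 0.0641 to 0.125, limma).

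Among S-phase markers more genes were called down than up. Of 27, 12 were called down and 3 up, RRM2 and TK1 among the latter, and the other 12 did not pass the test. The median log2 fold change of the list was -0.10. Over all genes tested, 13.0% were called down and 16.2% up. The largest falls in this list were those of PRIM1, a primase subunit (-0.47, adjusted p = 6.12e-07, limma), and the helicase subunit MCM6 (-0.34, adjusted p = 7.86e-07, limma), followed in order of p by PCNA (-0.25, adjusted p = 1.66e-04, limma) and MCM3 (-0.21, adjusted p = 3.43e-04, limma). Some of these genes, among them MCM genes, PCNA and PRIM1, were picked by the study on these same samples, so their direction is not independent evidence, and SLBP stands in both lists. RRM2 (0.17) was called with every sample left out, whereas TK1 (0.13) was called only without Caki2+Vector B (0.074 without Caki2+Vector A). The part of S-phase entry in the histone levels was not tested.

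**Figure D5:**
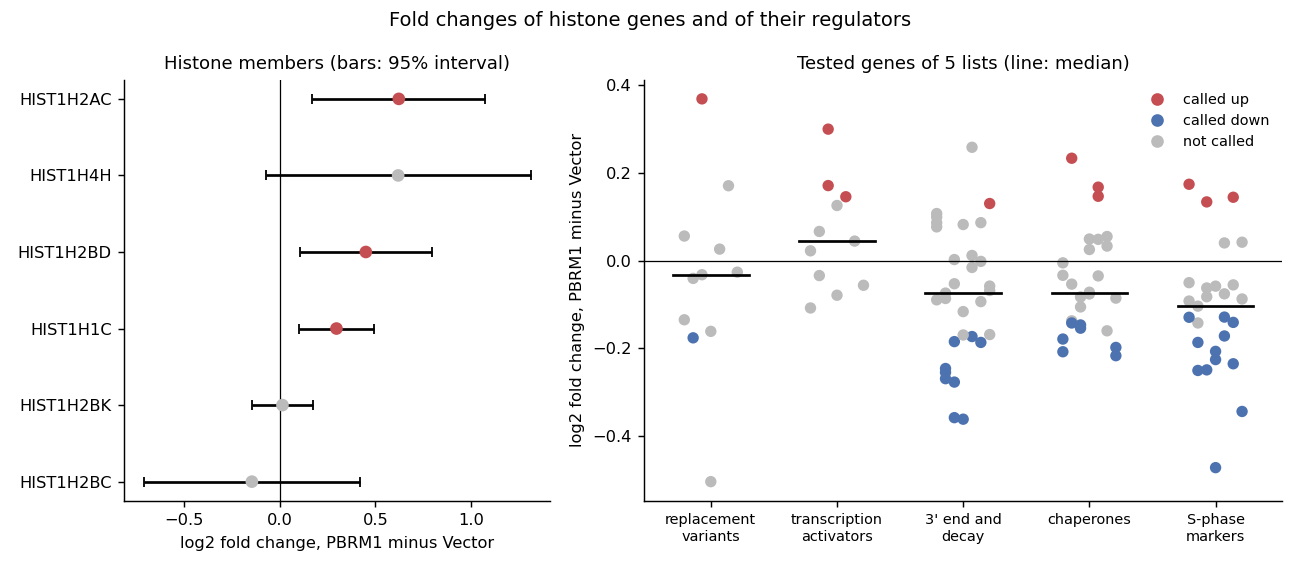
Left, log2 fold changes (x axis, PBRM1 minus Vector) of the 6 tested members with their 95% intervals, red where the adjusted p of limma is under 0.05. Right, log2 fold changes (y axis) of the tested genes of 5 lists, one point a gene, coloured by call, with a line at the median; the 3 called members lie above 0, while in the 3′ end, chaperone and S-phase lists more genes were called down than up.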

How the data were processed

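According to the study's methods and the submitters' processing notes, the authors removed adapters, poor reads and rRNA reads, used STAR to align what was left to hg19, and counted 25369 genes of a UCSC annotation with htseq-count. The values the authors deposited are a signal per gene, normalized counts as DESeq2 makes them. Every value is a whole multiple of 1 step per sample (100.0% whole within 0.02 reads), so whole reads were recovered. The library kit is not stated to mark strand. The replicates are called biological.

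The 13303 genes with 10 or more normalized counts in 3 or more samples were tested on the scale of log2(normalized count + 1) with limma 3.58.1 (trend, robust) in R 4.3.3, with Benjamini-Hochberg adjustment over all of them. Fold changes on this scale understate those of low genes. The count models edgeR 4.0.16, DESeq2 1.42.0 and limma voom were run on recovered reads as alternatives, with TMM, pseudocounts of 0.5 and 4, other filters, a correction for length and GC content, a replicate block and each sample left out. edgeR with no filter was added after seeing the data. On simulated data for this comparison with 200 of 13303 genes changed by a log2 fold change of 1, limma recovered 88.5%, with 14 false calls among 191. DESeq2 recovered 85%, with 5 false calls among 175. The spread of the simulated counts was set, not estimated from these samples. The called members changed by only 0.30 to 0.62, so the simulation does not give the recovery or error for changes of that size. Single members and the ratios of both pairs of members were also compared by an exact permutation test, whose smallest p for 3 against 3 is 0.1. No such p is printed.

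Members and gene lists were chosen with earlier results of these data known. Named members are those called, the 8 with the highest mean and the most changed tested member of each type. In each list up to 4 genes with the smallest adjusted p are named, and all genes of the variant and activator lists. Outside that rule SLBP, UPF1, CABIN1, HJURP, RRM2 and TK1 are named, chosen after their values were seen. Stem-loops and gene models come from GRCh37 and GENCODE, matched by current symbol for 70 of 73 members (HIST1H2BG, HIST1H2BF and HIST1H4F were not matched), and promoters from RefSeq (GRCh38.p14) for 65. Computations outside R used Python 3.11.15, numpy 2.4.6, pandas 2.3.3, scipy 1.17.1 and matplotlib 3.10.9.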

Additional observations from a re-analysis of the deposited data

How the results depend on the processing

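The depth limits these results. Of 73 members 67 could not be tested, and the SE of the 6 tested ran from 0.077 to 0.34 on the log2 scale. Genes called over all genes numbered 3886, or 2553 with DESeq2 (2856 to 4170 leaving out 1 replicate). Correction for length and GC content turned the split from 55.4% up to 43.0% up of the genes called (2014 up, 2670 down, against 2152 and 1734), and the members called stayed at 3 up and 0 down. Members called up were 0 with DESeq2 and 0 to 2 leaving out 1 replicate, and 2 or 3 in the other alternatives. With DESeq2, the log2 fold changes were 0.29 for HIST1H1C (adjusted p = 0.112), 0.65 for HIST1H2AC (adjusted p = 0.168) and 0.44 for HIST1H2BD (adjusted p = 0.198). HIST1H2BD had 0.45 with no filter and 0.44 with edgeR and no filter (adjusted p = 0.0559). Leaving out 1 replicate gave 0.24 to 0.34 for HIST1H1C, 0.51 to 0.69 for HIST1H2AC and 0.33 to 0.58 for HIST1H2BD, all above 0, -0.29 to 0.0066 for HIST1H2BC and -0.0071 to 0.046 for HIST1H2BK.

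The direction turned for HIST1H2BC without Caki2+Vector C (0.0066), and for HIST1H2BK without Caki2+Vector A (-0.0071) and without Caki2+PBRM1 B (-0.0040). Neither was called. Among uncalled list genes it turned for H3F3B without Caki2+Vector A (range -0.058 to 0.0092), NPAT without Caki2+Vector A (0.043), Caki2+PBRM1 A (0.0027) or Caki2+PBRM1 C (0.010), HINFP without Caki2+Vector A (-0.091) or Caki2+PBRM1 B (range -0.12 to 0.15) and with the length and GC correction (-0.0033), and CRAMP1L with that correction (-0.030). The cause was not tested. The calls of UPF1 and CABIN1 were also lost with DESeq2 and with that correction (log2 fold changes 0.062 and 0.095), and those of HJURP and TK1 with DESeq2. The ratio of the summed level of all members was 1.12, 1.08 as RPM and 1.11 to 1.13 leaving out 1 replicate. Over all these alternatives the lists of 3′ end processing (4 to 10 down, 0 or 1 up), chaperones (4 to 13 down, 1 to 3 up) and S-phase markers (7 to 15 down, 1 to 3 up) kept more genes down than up. With the length and GC correction, genes called down also outnumbered those called up over all genes (2670 and 2014).

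The labels give both groups the letters A, B and C, but samples with the same letter did not deviate together (Pearson r of -0.0077, 0.0059 and 0.014 across genes). With the letter as a replicate block 4107 genes were called, and the members called stayed at 3 up and 0 down.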
